A study of Homo sapiens with 3 samples.

Results

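The proteasome genes described here are all gene rows whose symbol is PSM followed by a letter from A to G and a number. The rule found 46 genes among the 33423 gene names of the 3 count tables, and all 46 had UMIs in each table. They were 7 alpha ring subunits, 4 structural and 3 catalytic beta subunits, the 3 immunoproteasome subunits PSMB8, PSMB9 and PSMB10, 6 ATPase and 3 non-ATPase subunits of the base, 8 lid subunits, 4 activators, 1 inhibitor, 4 chaperones of core assembly and 3 of base assembly. The expression of PSMA8 and PSMB11, core subunits of testis and thymus, is not analysed here, and they enter only the promoter search below. The rule itself uses names and no measured value.

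Single-cell RNA-seq was performed by Drop-seq, in which a cell and a barcoded bead share a droplet and every captured mRNA gets a unique molecular identifier (UMI). The cells were LNCaP and VCaP, established prostate cancer lines that express the androgen receptor, and enzalutamide is a drug that blocks this receptor. VCaP parental was exposed to the vehicle (0.1% DMSO) for 48 h, VCaP-ENZ48 to 10 µM enzalutamide for 48 h and LNCaP-ENZ168 to 10 µM enzalutamide for 168 h. Each group was 1 library of 1 cell line, so no difference below has a replicate check, no test was made, and intervals (95%) cover counting error only.

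The 26S proteasome is the barrel-shaped protease that degrades proteins tagged with ubiquitin. Its 20S core stacks rings of alpha subunits, which gate the entry, on rings of beta subunits, of which PSMB5, PSMB6 and PSMB7 cut peptide bonds. The 19S particle caps the core. Its base unfolds substrates with the ATPases PSMC1 to PSMC6, and its lid removes ubiquitin. In immune cells and after interferon, PSMB8, PSMB9 and PSMB10 take the places of PSMB5, PSMB6 and PSMB7 and form the immunoproteasome, which supplies peptides for MHC class I molecules. The activators PSME1 to PSME4 open the core without ubiquitin.

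Promoters are printed for the 3 immunoproteasome genes, since PSMB8 had the highest ratio of the tested members between the VCaP libraries, and for PSMD14, the lid deubiquitinase, which had the lowest. The sequences are from RefSeq (GRCh38.p14), run from 5′ to 3′ on the strand of the gene and end at the base before its start. Windows matched 42 of 48 named proteasome genes; PSMA7, PSMB1, PSMB6, PSMB7, PSMD4 and PSMG3 had no match. The 3 patterns below were searched on both strands of the 250 bases before each start, namely TGACNNNGC (the core of the antioxidant response element, also bound by the proteasome gene activator NFE2L1), GAAANNGAAA (the core of the interferon-stimulated response element) and TTCNNNGAA (the core of the gamma-activated site). Matches of different patterns may overlap, and capitals mark a match. PSMB8 is shown for chr6:32844680-32844835 (minus strand), where a transcript annotated to PSMB9 covers part of the sequence further upstream, PSMB9 for chr6:32853942-32854191 (plus strand), PSMB10 for chr16:67936851-67937100 (minus strand) and PSMD14 for chr2:161308175-161308424 (plus strand).
PSMB8: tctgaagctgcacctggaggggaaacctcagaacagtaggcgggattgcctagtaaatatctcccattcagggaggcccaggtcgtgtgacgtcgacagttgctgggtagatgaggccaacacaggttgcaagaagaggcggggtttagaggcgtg
PSMB9: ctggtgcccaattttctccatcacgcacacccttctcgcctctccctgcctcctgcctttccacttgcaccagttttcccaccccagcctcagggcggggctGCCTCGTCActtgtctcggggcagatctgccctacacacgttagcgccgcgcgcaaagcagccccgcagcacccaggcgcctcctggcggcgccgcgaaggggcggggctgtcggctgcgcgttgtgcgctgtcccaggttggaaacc
PSMB10: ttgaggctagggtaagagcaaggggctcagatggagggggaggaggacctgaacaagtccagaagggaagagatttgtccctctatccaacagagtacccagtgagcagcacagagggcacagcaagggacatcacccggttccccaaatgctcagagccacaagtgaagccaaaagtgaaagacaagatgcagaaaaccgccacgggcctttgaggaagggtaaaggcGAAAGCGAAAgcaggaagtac
PSMD14: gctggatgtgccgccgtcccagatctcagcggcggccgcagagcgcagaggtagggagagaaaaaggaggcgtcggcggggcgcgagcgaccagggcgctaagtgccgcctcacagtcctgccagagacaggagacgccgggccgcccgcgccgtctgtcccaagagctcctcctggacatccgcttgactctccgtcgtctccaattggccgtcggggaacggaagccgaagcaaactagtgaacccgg

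PSMB9 held 1 TGACNNNGC match, on the minus strand 148 to 140 bases before its start. In PSMB10, GAAAGCGAAA lay 21 to 12 bases before the start. The printed PSMB8 and PSMD14 windows held no match, and a window of a second PSMB8 start held TTCNNNGAA. TGACNNNGC was found in 13 of 51 windows of proteasome genes (25.5%), against 10.9% of all 35114 windows. The other patterns were in 5 windows (9.80%, against 3.02% of all) for GAAANNGAAA and in 7 windows (13.7%, against 6.57%) for TTCNNNGAA. A match describes letters in a window and is not evidence of binding. PSMB8 (GRCh38 chromosome 6, 32840717 to 32844679) and PSMB9 (32844136 to 32859851) are neighbours in the MHC region, on opposite strands, and their annotated spans overlap. The RefSeq start of PSMB9 used for its promoter, 32854192, lies inside its annotated span. The nearest start of TAP1, the peptide transporter gene, lay 488 bases from this RefSeq start.

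After filtering, the libraries held 944 (LNCaP-ENZ168), 997 (VCaP parental) and 947 (VCaP-ENZ48) cells with 6313283, 19515202 and 14301287 UMIs, and median depths of 5389, 17817 and 11224 UMIs per cell. No barcode was shared between libraries. Barcodes ending in the letter N in place of a base were 21.2% in LNCaP-ENZ168, 86% in VCaP parental and 86.9% in VCaP-ENZ48. ERG, which a gene fusion drives in VCaP, had 0 UMIs in LNCaP-ENZ168 (a count of 0 allows up to 0.475 CPM) and 105 and 57.1 CPM in VCaP parental and VCaP-ENZ48. The 4 epithelial markers KRT8, KRT18, EPCAM and CDH1 were detected in every library, with a summed level of 904 to 1003 CPM. Fibroblast, endothelial and immune markers each summed to 2.06 CPM or less. The 5 prostate luminal markers, most of them androgen targets, summed to 618 (LNCaP-ENZ168), 1874 (VCaP parental) and 3485 CPM (VCaP-ENZ48), but did not move together. In the same order, KLK2 was at 27.1, 1554 and 3053 CPM and HOXB13 at 390, 190 and 382 CPM. SLC45A3 was at 11.9, 96.1 and 22.9 CPM, TMPRSS2 at 97.6, 26.8 and 16.8 CPM and KLK3 at 91.9, 7.64 and 10.9 CPM.

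Proteasome genes took 1.03% of all UMIs in LNCaP-ENZ168, 0.877% in VCaP parental and 0.543% in VCaP-ENZ48. Scaled to a common library total (CPM, the unit of all levels here) this was 10299 (95% interval 10220 to 10378), 8768 (8727 to 8810) and 5425 (5387 to 5464). VCaP-ENZ48 therefore had the lowest share and LNCaP-ENZ168 the highest, and the intervals did not overlap. The 31 subunits of the constitutive 26S proteasome made up most of it, with 9048, 7921 and 4732 CPM in the same order. CPM is a share of a library's total, so a lower share and more RNA of other genes cannot be told apart.

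**Figure D1:**
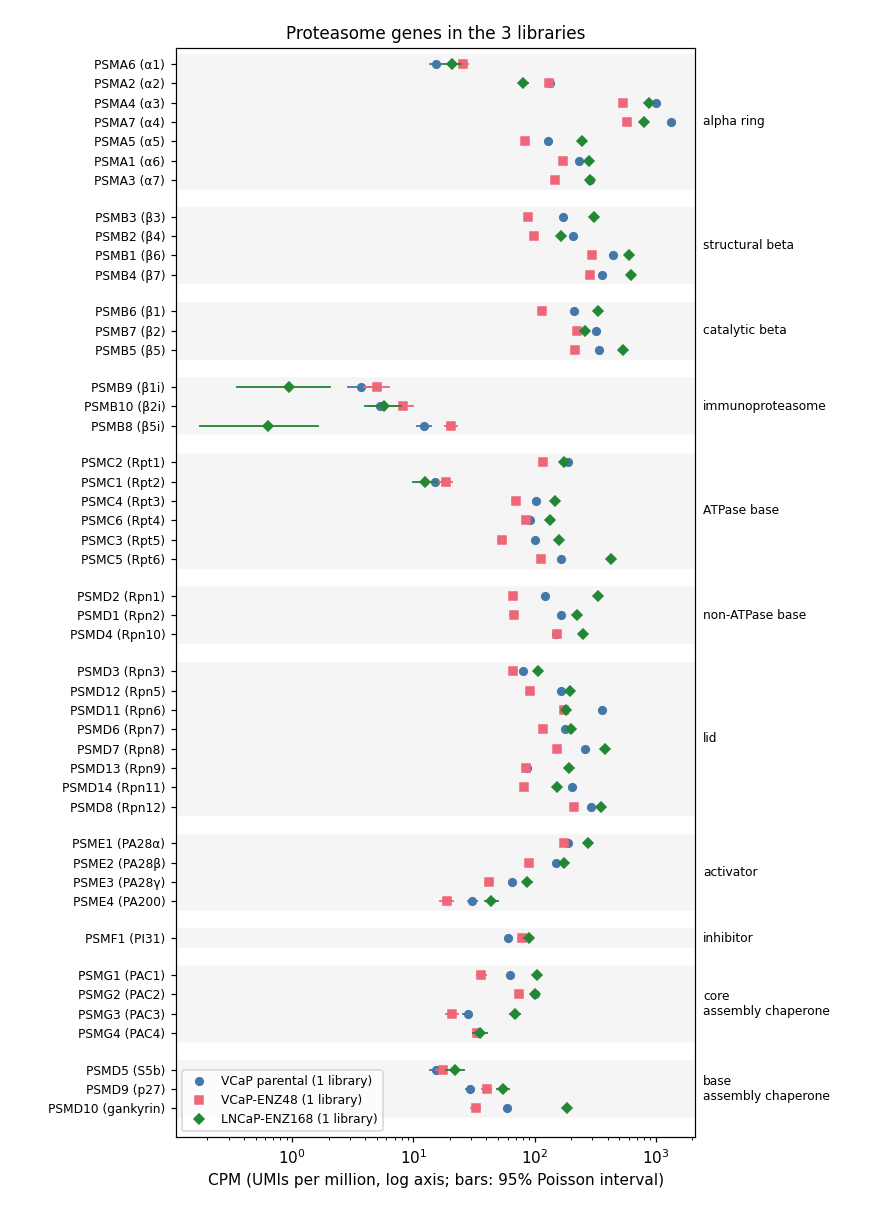
CPM (log axis) of the 46 proteasome genes, grouped by role, in VCaP parental (circles), VCaP-ENZ48 (squares) and LNCaP-ENZ168 (diamonds), 1 library each, with exact 95% Poisson intervals as bars. Most squares lie to the left of both other symbols, as for PSMD14 at 82.4 CPM, whereas PSMB8 is highest in VCaP-ENZ48, at 20.6 CPM, and nearly absent from LNCaP-ENZ168, at 0.634 CPM.

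The first comparison asked how the proteasome genes differed after 48 h of enzalutamide in VCaP. Of the 31 constitutive 26S subunits 15 were lower in VCaP-ENZ48 than in VCaP parental, 7 of 14 in the core and 8 of 17 in the regulatory particle, while PSMB8 of the immunoproteasome and PSMA6 were higher. Differences are log2 ratios of CPM minus the median log2 ratio over all genes averaging 10 CPM or more in the pair, which was -0.07 here. A gene is called higher or lower where it lies at least 1.5-fold from that median gene. Of the 46 genes 44 reached 10 CPM, and 19 of these were lower, against 15.5% of all 7729 genes, and 2 were higher, against 18.3%. The median of the 44 was -0.52 (medians of the interval bounds -0.61 and -0.42), where the median of all genes is 0 by construction. The count of lower genes was 12 of 34 with a minimum of 50 CPM (13.6% of all genes tested) and 30 of 46 with a minimum of 1 CPM (20.5%). With barcodes ending in N left out, it was 18 of 44 (16.1%). With a limit of 2-fold it was 3 of 44, against 6.28% of all genes.

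In the 20S core, 7 of 14 constitutive subunits were lower and 1 was higher (against 15.5% and 18.3% of all genes), with a median of -0.60. PSMA7 (α4) was at 1334 CPM (1318 to 1350) in VCaP parental and at 584 (571 to 596) in VCaP-ENZ48, a log2 ratio to the median gene of -1.12 (-1.16 to -1.09). PSMA4 (α3) was at 1001 and 539 CPM (log2 -0.83) and PSMA3 (α7) at 284 and 146 CPM (log2 -0.89). The abundant alpha subunits were thus lower, but the ring did not differ as a block. PSMA2 (α2) was at 135 and 132 CPM, a difference of 0.03 whose interval (-0.05 to 0.12) held 0. PSMA6 (α1), with few UMIs, was higher, at 25.7 CPM (23.1 to 28.4) against 15.5 (13.8 to 17.3), or 1.74-fold (log2 0.80, 0.57 to 1.02). PSMA5 (log2 -0.58) lay just inside the 1.5-fold limit and PSMA1 (log2 -0.36) well within it.

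Of the structural beta subunits PSMB2 (β4) was at 207 CPM in VCaP parental and 98.9 in VCaP-ENZ48 (log2 -1.0, -1.09 to -0.91) and PSMB3 (β3) at 173 and 88.2 (log2 -0.90). PSMB1 (β6) was at 442 and 297 CPM and PSMB4 (β7) at 362 and 285, both within 1.5-fold of the median gene. All 3 catalytic subunits lay below the median gene. PSMB6 (β1), which cuts after acidic residues, was at 212 CPM (206 to 219) in VCaP parental and 114 (109 to 120) in VCaP-ENZ48 (log2 -0.82, -0.91 to -0.74). PSMB5 (β5), the chymotrypsin-like subunit and main target of proteasome inhibitors, was at 342 (334 to 351) and 214 CPM (206 to 221), a log2 ratio of -0.61 (-0.67 to -0.55). PSMB7 (β2), the trypsin-like subunit, was at 319 and 223 CPM (log2 -0.45, -0.51 to -0.39), within the limit.

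In the 19S particle, 8 of 17 subunits were lower and none was higher (against 15.5% and 18.3% of all genes), with a median of -0.54. Both scaffold subunits of the base were among them. PSMD1 (Rpn2) was at 165 CPM in VCaP parental and 67.4 in VCaP-ENZ48 (log2 -1.22, -1.33 to -1.12), and PSMD2 (Rpn1) at 122 and 66.8 (log2 -0.80). The ubiquitin receptor PSMD4 (Rpn10) differed from these neighbours, at 150 and 154 CPM (log2 0.11, 0.03 to 0.19). Among the ATPases PSMC3 (Rpt5; 102 and 53.7 CPM) and PSMC2 (Rpt1; 190 and 118 CPM) were lower, PSMC4 and PSMC5 lay within the limit at -0.49 and -0.47, and PSMC6 was at -0.04. PSMC1 (Rpt2), at 15.1 and 18.6 CPM, lay above the median gene (log2 0.37, 0.12 to 0.61).

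The lid had 4 of 8 subunits lower (against 15.5% of all genes) and a median of -0.61. PSMD14 (Rpn11), the metalloprotease that cuts ubiquitin from the substrate, had the lowest ratio of all tested members, with 204 CPM (198 to 211) and 82.4 CPM (77.7 to 87.2), 2.37-fold lower relative to the median gene (log2 -1.24, -1.34 to -1.15). PSMD11 (Rpn6), which bridges lid and core, was at 362 and 175 CPM (log2 -0.98), PSMD12 (Rpn5) at 164 and 92.0 (log2 -0.77) and PSMD7 (Rpn8), the partner of PSMD14, at 260 and 154 (log2 -0.69). PSMD6, PSMD8 and PSMD3 were within the limit, between -0.54 and -0.19. PSMD13 (Rpn9) was at 86.7 and 85.3 CPM, and its interval (-0.06 to 0.15) held 0.

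The activators did not move together. PSME1 and PSME2 form 1 heteromeric ring, PA28, and are both interferon-inducible, yet PSME1 was at 189 CPM (183 to 195) in VCaP parental and 174 (168 to 181) in VCaP-ENZ48 (log2 -0.05, -0.12 to 0.03), whereas PSME2 was at 152 (146 to 157) and 89.6 (84.8 to 94.7; log2 -0.69, -0.79 to -0.59). PSME3, the nuclear PA28γ, was at 65.2 and 42.2 CPM (log2 -0.56, -0.70 to -0.42), within the limit. PSME4, the PA200 activator, was at 30.7 and 18.9 CPM (log2 -0.63, -0.85 to -0.42), past it. The inhibitor PSMF1 lay on the other side, at 60.9 and 78.2 CPM (log2 0.43, 0.31 to 0.55), within 1.5-fold.

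Of only 7 chaperones 2 were lower, where 15.5% of all genes were, so this count does not set them apart. They were PSMG1, which pairs with PSMG2 to assemble the alpha ring (62.4 and 36.4 CPM, log2 -0.71), and PSMD10 (gankyrin, 59.4 and 32.7 CPM, log2 -0.80). PSMG2, PSMG3 and PSMG4 were at -0.34, -0.38 and 0.05. The base chaperones PSMD9 (29.3 and 40.3 CPM, log2 0.53, 0.36 to 0.70) and PSMD5 (15.3 and 17.5 CPM, log2 0.26, 0.01 to 0.51) lay above the median gene, on the other side from PSMD10.

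**Figure D2:**
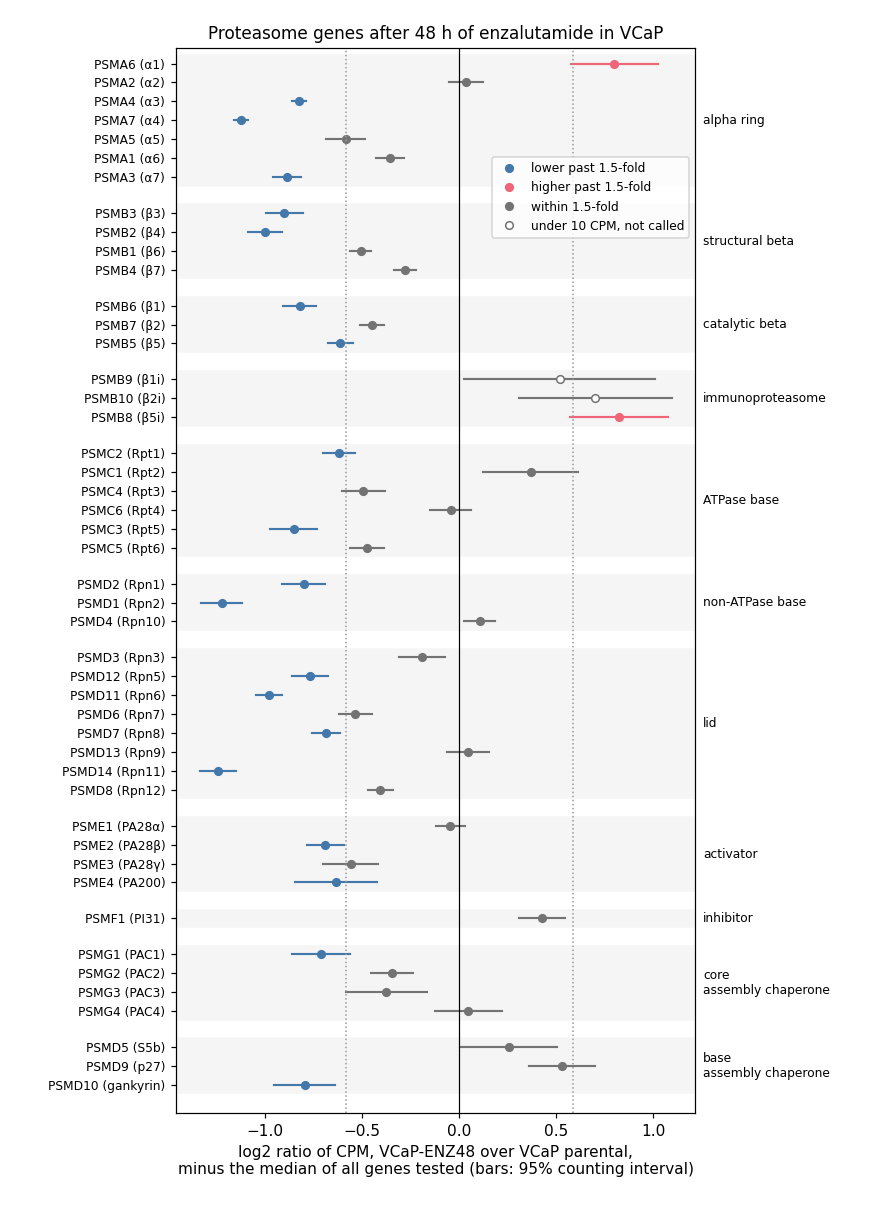
Log2 ratio of CPM in VCaP-ENZ48 over VCaP parental minus the median of all tested genes, for each proteasome gene by role, with 95% counting intervals as bars, 0 as the solid line and 1.5-fold as dotted lines. Of the filled points 19 lie to the left of the left dotted line and 2, PSMA6 and PSMB8, to the right of the right one, and open points mark PSMB9 and PSMB10, which were under 10 CPM.

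The immunoproteasome subunits, all at low levels, had positive ratios, of which that of PSMB8 was called. PSMB8 (β5i) was at 12.2 CPM (10.7 to 13.9, 239 UMIs) in VCaP parental and 20.6 CPM (18.3 to 23.1, 295 UMIs) in VCaP-ENZ48, 1.77-fold higher relative to the median gene (log2 0.82, 0.57 to 1.07). PSMB10 (β2i) was at 5.33 and 8.25 CPM (log2 0.70, 0.31 to 1.09) and PSMB9 (β1i) at 3.69 and 5.03 CPM (log2 0.52, 0.03 to 1.01), both under 10 CPM and therefore not called. All 3 had a positive ratio whose interval left out 0, relative to the median of genes of 10 CPM or more, at -0.07. PSMB9 and PSMB10 were below that level themselves. With a minimum of 1 CPM the median gene was at 0.19, and the ratios of PSMB9 and PSMB10 were 0.26 and 0.44, both within 1.5-fold. None of the 46 members was then called higher (0 of 46, against 26.6% of all genes). When each cell was reduced to 2000 UMIs at random, PSMB8 kept 31 UMIs in VCaP parental and 25 in VCaP-ENZ48 and its ratio turned to -0.11, while in 4 further random draws, made after this value was seen, it had 20 to 29 against 30 to 48 UMIs and ratios of 0.72 to 1.46.

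The share of immunoproteasome UMIs among those of the immunoproteasome and the constitutive catalytic subunits compares both within a library. It was 2.38% in VCaP parental (exact binomial 95% interval 2.16 to 2.61%, 415 of 17454 UMIs), 5.80% in VCaP-ENZ48 (5.31 to 6.32%, 485 of 8359) and 0.640% in LNCaP-ENZ168 (0.469 to 0.853%, 46 of 7187). The ratio of immunoproteasome to constitutive UMIs was thus 2.53-fold higher in VCaP-ENZ48 than in VCaP parental (log2 1.34, 1.14 to 1.54), with higher CPM of the first and lower CPM of the second. Each pair showed it, with 3.45% and 8.81% for PSMB8 with PSMB5, 1.71% and 4.22% for PSMB9 with PSMB6 and 1.64% and 3.57% for PSMB10 with PSMB7. The PSMB8 antisense gene had 12 and 10 UMIs in the VCaP libraries.

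**Figure D3:**
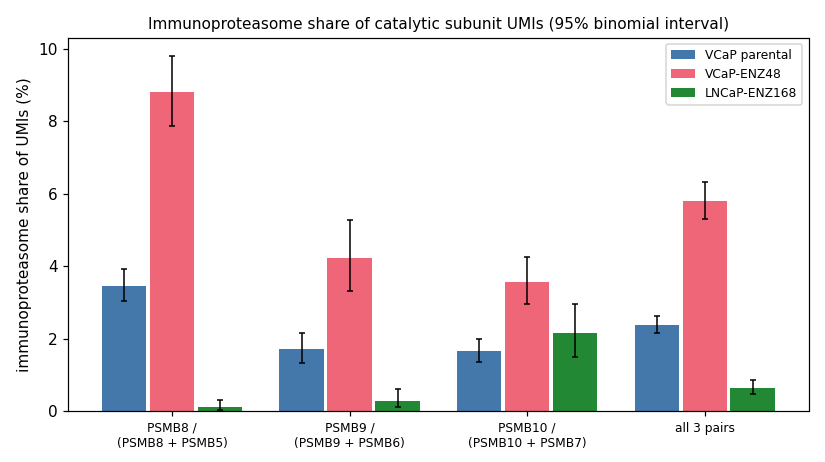
Share (%) of immunoproteasome UMIs in the UMIs of an immunoproteasome subunit and its constitutive counterpart, for the 3 pairs and their sum, as bars per library with exact binomial 95% intervals. VCaP-ENZ48 has the tallest bar in every pair, from 3.57% to 8.81%, and LNCaP-ENZ168 is at 0.118% for PSMB8 but at 2.14% for PSMB10.

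The proteasome level was also examined cell by cell. With each cell of at least 2000 UMIs reduced to 2000 UMIs, the median cell had 16 UMIs of the 31 constitutive 26S subunits in VCaP parental (quartiles 12 and 19, 997 cells), 9 in VCaP-ENZ48 (7 and 12, 917 cells) and 18 in LNCaP-ENZ168 (14 and 22, 943 cells). The upper quartile of VCaP-ENZ48 equalled the lower quartile of VCaP parental, so the whole distribution was shifted rather than a tail. At this depth 1 cell of VCaP-ENZ48 and 0 cells of the other libraries had no UMI of these subunits (0 of 997 and 0 of 943).

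**Figure D4:**
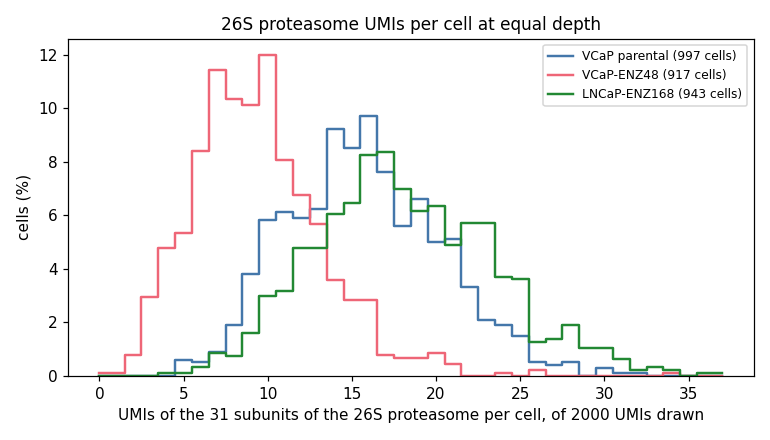
Percent of cells (vertical axis) by the number of UMIs of the 31 constitutive 26S subunits among 2000 UMIs drawn per cell (horizontal axis), 1 line per library. The VCaP-ENZ48 line peaks to the left of both others, with medians of 9, 16 and 18 UMIs for VCaP-ENZ48, VCaP parental and LNCaP-ENZ168.

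Proliferation, depth and mitochondrial content moved between the libraries too. The 97 genes of the S and G2M lists summed to 15093 CPM in VCaP parental, 2862 in VCaP-ENZ48 and 6347 in LNCaP-ENZ168. The cells of a library were split into 3 equal groups by these UMIs, and the group with the most had 26S levels of 8179 CPM against 7564 CPM in the group with the fewest (VCaP parental, log2 0.11), 5141 against 4476 CPM (VCaP-ENZ48, log2 0.20) and 9726 against 8624 CPM (LNCaP-ENZ168, log2 0.17). The most cycling group of VCaP-ENZ48 and the least cycling group of VCaP parental both had a median of 6 of these UMIs in 2000. Their 26S levels were 5141 and 7564 CPM. The part of proliferation in the difference between the libraries was not tested. Among cells with at most 8 of these UMIs in 2000 (292 of 997 in VCaP parental, 839 of 917 in VCaP-ENZ48), 16 of 44 proteasome genes were lower, against 10.6% of all genes, and 4 were higher, against 16.3%.

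Splits by the other measures gave smaller or similar differences. From the group of cells with the fewest UMIs to the group with the most, the 26S level changed by 0.01 (VCaP parental), 0.09 (VCaP-ENZ48) and 0.01 (LNCaP-ENZ168) on the log2 scale. From the group with the lowest to that with the highest mitochondrial share it changed by -0.13, -0.16 and -0.19. The mitochondrial share of all UMIs was 6.24%, 7.49% and 8.94% in the same order. In each of these groups the 26S level was 4420 to 5141 CPM in VCaP-ENZ48 and 7517 to 8243 CPM in VCaP parental, ranges that did not overlap.

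The second comparison set LNCaP-ENZ168 beside each VCaP library. These contrasts differ in cell line, in the time or presence of enzalutamide, in depth and in the share of barcodes ending in N. The parts of these cannot be told apart, and both contrasts share the LNCaP library. Constitutive subunits lay on both sides of the median gene, while PSMB8 and PSMB9 were nearly absent from LNCaP-ENZ168. The median gene itself had log2 ratios of 0.67 over VCaP-ENZ48 and 0.59 over VCaP parental. Relative to it, 12 of 44 proteasome genes were higher than in VCaP-ENZ48, against 27.8% of all genes, and 6, PSMB8 among them, were lower, against 28.7%. Over VCaP parental 4 of 43 were higher, against 29.2%, and 10 were lower, against 30.7%. Medians were 0.16 and -0.14. The direction rests on this centring, as without it 31 genes were higher and 2 lower over VCaP-ENZ48 (53.7% and 15.2% of all genes) and 14 higher and 3 lower over VCaP parental (50.4% and 16.7% of all genes).

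The clearest difference of LNCaP-ENZ168 from both VCaP libraries was in PSMB8 and PSMB9 of the immunoproteasome. Cell line, exposure and depth cannot be told apart here. LNCaP-ENZ168 had 4 PSMB8 UMIs (0.634 CPM, 0.173 to 1.62) and 6 PSMB9 UMIs (0.950 CPM, 0.349 to 2.07). The ratio of PSMB8 to the median gene was -5.70 (-7.58 to -4.33) over VCaP-ENZ48 and -4.87 (-6.75 to -3.49) over VCaP parental on the log2 scale. For PSMB9 it was -3.08 (-4.57 to -1.89) and -2.55 (-4.04 to -1.36). Of these ratios only that of PSMB8 over VCaP-ENZ48 was called, as the others averaged under 10 CPM. PSMB8 reached that minimum only through its 20.6 CPM in VCaP-ENZ48, so the call adds nothing to the levels. PSMB10, also under the minimum in both contrasts, was at 5.70 CPM (3.99 to 7.89, 36 UMIs), with log2 ratios of -1.21 (-1.79 to -0.66) over VCaP-ENZ48 and -0.50 (-1.09 to 0.06) over VCaP parental. The interval of the second held 0. Its share with PSMB7 was 2.14% (1.51 to 2.95%) in LNCaP-ENZ168, 1.64% (1.35 to 1.99%) in VCaP parental and 3.57% (2.97 to 4.27%) in VCaP-ENZ48.

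Constitutive catalytic subunits were present at 538 (PSMB5), 333 (PSMB6) and 260 CPM (PSMB7) in LNCaP-ENZ168. Against VCaP-ENZ48 their log2 ratios were 0.66 (0.59 to 0.73), 0.87 (0.77 to 0.96) and -0.45 (-0.53 to -0.36), and against VCaP parental 0.06 (-0.00 to 0.12), 0.06 (-0.02 to 0.13) and -0.89 (-0.96 to -0.81). PSMB5 and PSMB6 were thus near the median gene when set beside VCaP parental, and PSMB7 was below it.

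The largest positive ratios over VCaP-ENZ48 were in PSMD10 (gankyrin), PSMD2, PSMC5 and PSMB3. PSMD10 was at 184 CPM (174 to 195) in LNCaP-ENZ168, 32.7 in VCaP-ENZ48 and 59.4 in VCaP parental, with log2 ratios of 1.83 (1.67 to 1.98) and 1.04 (0.92 to 1.16). For PSMD2, at 331 CPM, these were 1.64 (1.53 to 1.75) and 0.85 (0.76 to 0.93). The ATPase PSMC5 (Rpt6), at 425 CPM, had ratios of 1.24 (1.15 to 1.33) and 0.77 (0.70 to 0.85). PSMB3, at 311 CPM, was at 1.15 (lower bound 1.04) over VCaP-ENZ48 and at 0.26 over VCaP parental, within the limit. The other gene past 1.5-fold over VCaP parental was PSMG3 (68.9 CPM, log2 0.69, 0.51 to 0.88), an assembly chaperone.

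Among members averaging 10 CPM or more, the lowest ratio over VCaP-ENZ48 after PSMB8 was that of PSMA2, at 80.6 CPM in LNCaP-ENZ168 (log2 -1.38, -1.52 to -1.24), which was -1.33 (-1.47 to -1.20) over VCaP parental. PSMC1, at 12.5 CPM, was at -1.24 (-1.63 to -0.88) and -0.87, and PSMA6, at 20.9 CPM, at -0.97 (-1.27 to -0.68) and -0.16. Over VCaP parental the lowest ratios among such members were those of PSMD11 (183 and 362 CPM, log2 -1.58, -1.67 to -1.49), PSMA2, PSMA7 (799 and 1334 CPM, log2 -1.33, -1.38 to -1.29) and PSMD14 (154 and 204 CPM, log2 -1.0, -1.10 to -0.90). Without centring, the 2 genes more than 1.5-fold lower than in VCaP-ENZ48 were PSMB8 and PSMA2. All 4 activators lay within 1.5-fold in both contrasts. Over VCaP-ENZ48, PSME1 was at -0.01 (-0.10 to 0.08), PSME2 at 0.28 (0.16 to 0.40), PSME3 at 0.38 (0.21 to 0.55) and PSME4 at 0.55 (0.30 to 0.80). Over VCaP parental they were at -0.05 (-0.13 to 0.04), -0.40 (-0.50 to -0.30), -0.17 (-0.32 to -0.03) and -0.07 (-0.28 to 0.13), and the PSME1 and PSME4 intervals held 0.

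**Figure D5:**
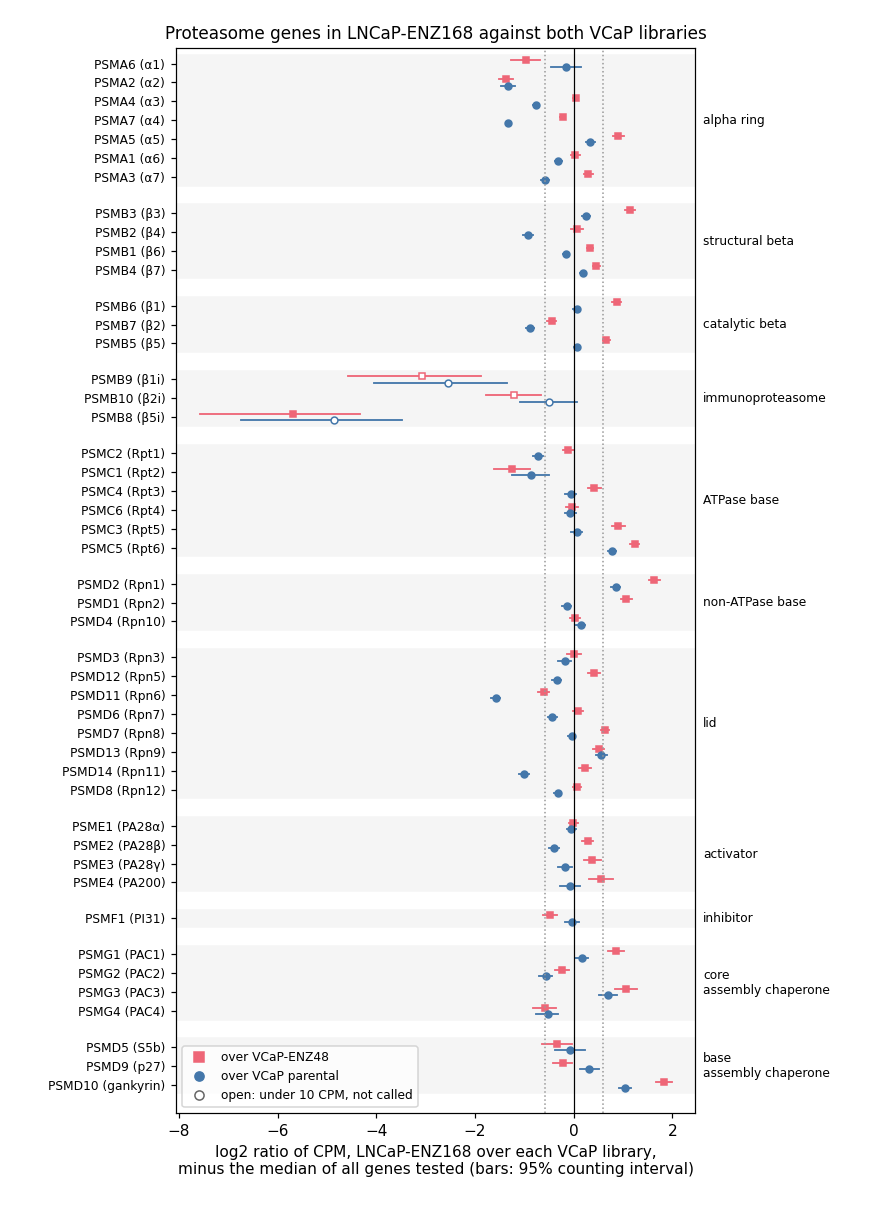
Log2 ratio of CPM in LNCaP-ENZ168 over VCaP-ENZ48 (squares) and over VCaP parental (circles) minus the median of all tested genes, by role, with 95% counting intervals, 0 as the solid line and 1.5-fold as dotted lines. PSMB8 (-5.70 and -4.87) and PSMB9 (-3.08 and -2.55) stand far to the left, and open symbols mark ratios of genes under 10 CPM, which were not called.

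Some members share sequence with other rows, so their values are less certain. Rows named as pseudogenes of PSMC1 held UMIs equal to 29.1% (LNCaP-ENZ168), 20% (VCaP parental) and 37.2% (VCaP-ENZ48) of the PSMC1 count, and those of PSMA6 7.58%, 14.2% and 14.7%. For PSMA2 they were 1.38%, 3.50% and 6.38%. These 3 genes also had the lowest ratios among the constitutive subunits over VCaP-ENZ48. In VCaP they lay above the median gene, PSMA2 by only 0.03 with an interval (-0.05 to 0.12) that held 0. Their part in these results was not tested. Without them the same 15 subunits, now of 28 constitutive 26S subunits, were lower in VCaP-ENZ48, with a median of -0.62. That none was then higher, and that the median was lower, follows from leaving these 3 genes out, as PSMA6 was the only 26S subunit called higher. Exons of PSMC1, PSMC5, PSMD7 and PSMD11 overlap those of other genes on the opposite strand (NRDE2 for PSMC1 and FTSJ3 for PSMC5). Whether counting used strand is not given in the sources used here. Exons of PSMA1, PSMA2, PSMA6, PSMB10, PSMD9 and PSME2 overlap those of other genes on the same strand, which counting by strand does not separate. A row named as antisense to PSMA3 held UMIs equal to 34.2% (LNCaP-ENZ168), 23.3% (VCaP parental) and 59.5% (VCaP-ENZ48) of the PSMA3 count. For PSMG3 the antisense row held 12.9%, 15.6% and 24.9%. The part of these rows and of the overlaps was not tested.

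Of 46 other genes of ubiquitin, proteasome and antigen processing, 37 reached 10 CPM in the VCaP pair, with 8 lower (21.6%, against 15.5% of all genes), 4 higher (10.8%, against 18.3%) and a median of 0.06. Lower were 2 of 5 further proteasome components, the lid subunit SEM1 (417 and 203 CPM in VCaP parental and VCaP-ENZ48, log2 -0.97) and the core assembly factor POMP (346 and 202 CPM, log2 -0.71), and 2 of 7 proteasome-bound enzymes, the deubiquitinases UCHL5 (log2 -0.87) and USP14 (log2 -0.59). UFD1 (log2 -0.68), a cofactor of the segregase VCP, and NGLY1 (log2 -0.61), which processes NFE2L1, were lower as well. NFE2L1 itself was at 52.7 and 52.9 CPM (log2 0.07, -0.07 to 0.21). None of the 6 genes of ubiquitin and E1 enzymes passed the fold, and the protease DDI2 was higher (log2 0.63). Of 9 shuttles and segregase genes 1 was lower, UFD1, and 1 was higher, DDI2.

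Of 13 antigen processing genes 7 were tested in VCaP, of which 3 were higher (against 18.3% of all genes) and 2 lower (against 15.5%). HLA-B (7.33 and 17.4 CPM, log2 1.32), HLA-C (14.1 and 27.6 CPM, log2 1.03) and the loading factor TAPBP (24.0 and 40.5 CPM, log2 0.82) were higher. B2M, the light chain of MHC class I (858 and 486 CPM, log2 -0.75), and ERAP2, a peptide-trimming enzyme (14.8 and 8.53 CPM, log2 -0.72), were lower. TAP1, the neighbour of PSMB9, was at 8.20 and 10.8 CPM, with a mean under 10 CPM. In LNCaP-ENZ168 HLA-B and HLA-C were at 91.7 and 128 CPM, above both VCaP libraries, in the library in which PSMB8 and PSMB9 were near 0. Over all 46 genes LNCaP-ENZ168 had 9 higher and 13 lower of 40 tested against VCaP-ENZ48, and 9 and 14 of 40 against VCaP parental, which is 22.5% and 32.5%, and 22.5% and 35%, where all genes had 27.8% and 28.7%, and 29.2% and 30.7%.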

How the data were processed

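The authors deposited UMI counts, not normalized, with genes in rows and cell barcodes in columns. The authors aligned reads to GRCh38 with STAR 2.7.3a and counted them with Drop-seq tools 2.3.0 and Picard 2.18.22 on Gencode 33, at default settings and an expectation of 1000 cells. A gene missing from a table was taken as 0.

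Cells with at least 300 genes, 500 UMIs and at most 25% mitochondrial UMIs were kept, and doublets were not identified. Counts were summed per library and scaled to CPM. Genes averaging 10 CPM or more over a pair were compared by log2 ratios without a pseudocount, centred on the median gene. Intervals are exact (Poisson, conditional or Clopper-Pearson) at 95%. Thinning drew 2000 UMIs per cell without replacement. Depth limits the low genes most.

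Members and lists were chosen with earlier results of these data known. All members were accounted for by role, with full ratios for PSMB5 to PSMB10, PSME1 to PSME4 and the 4 largest rises and falls per comparison. Alternatives covered cell filters, scaling (TMM and median of ratios), centring, minimum, pseudocount and fold. Steps were tested on simulated data. Gene annotation was Gencode 44 on GRCh38, and promoter windows were from RefSeq. Python 3.11.15, numpy 2.4.6, pandas 2.3.3, scipy 1.17.1, matplotlib 3.10.9, R 4.3.3 and edgeR 4.0.16 (for TMM factors only) were used.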

Additional observations from a re-analysis of the deposited data

How the results depend on the processing

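No paired analysis was possible because no group holds more than 1 library. For the VCaP pair, a minimum of 1 CPM gave 30 lower and 0 higher of 46 members (20.5% and 26.6% of all genes), with a median of -0.76. A minimum of 50 CPM gave 12 and 1 of 34 (13.6% and 15.9%) with -0.40. A smaller fold limit (25%) gave 30 and 5 of 44 (28.3% and 29.5%), and a fold of 2 3 and 0 (6.28% and 9.60%). The least cycling cells gave 4 higher of 44 (16.3%). For LNCaP-ENZ168 over VCaP-ENZ48, no centring gave 31 higher and 2 lower of 44 (53.7% and 15.2% of all genes) with a median of 0.83. A minimum of 50 CPM gave 1 lower of 36 (27.2%) with 0.39. The smaller limit gave 19 higher of 44 (36.9%), and a fold of 2 6 higher and 3 lower (16.4% and 19%). Thinned cells gave a median of 0.28. Over VCaP parental, no centring gave 14 higher and 3 lower of 43 (50.4% and 16.7% of all genes) with a median of 0.45. A minimum of 50 CPM gave 5 lower of 36 (28.6%) with 0.17, of the opposite sign. The smaller limit gave 16 lower of 43 (38.9%), and a fold of 2 1 higher and 4 lower (18.7% and 20.5%). The log2 ratio of immunoproteasome to constitutive catalytic UMIs in the VCaP pair was 0.95 after thinning (1.19 to 1.51 in 4 further draws), and in cells of 10000 to 20000 UMIs, an alternative chosen after seeing the data, it was -2.75 for LNCaP-ENZ168 over VCaP-ENZ48 and -1.36 over VCaP parental. Among called ratios the sign turned for PSMB8 in the VCaP pair after thinning (-0.11), and without centring for PSMD11 (0.0603) and PSMG4 (0.0840) over VCaP-ENZ48 and PSMA3 (0.00653) over VCaP parental. Apart from the removal of the median gene's shift, the smaller number of UMIs or genes and the changed limit, which the alternatives are built on, the cause was not tested. The other values (87 counts of members, 41 medians and 24 immunoproteasome ratios) moved little. Of the single-member ratios 1630 moved little and 442 moved more, and over all settings the ratio took both signs for 8 members in the VCaP pair, 18 over VCaP-ENZ48 and 23 over VCaP parental, called or not. Depth limits PSMB8, PSMB9 and PSMB10, which had 4, 6 and 36 UMIs in LNCaP-ENZ168.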
